A study of Caenorhabditis elegans with 8 samples.

Results

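The mitochondrial respiratory chain genes that the nucleus encodes were followed through the gonads of wild-type, sin-3 mutant and hda-3 mutant Caenorhabditis elegans. The genes were taken by symbol, as all protein-coding nuclear genes whose names begin with nuo-, sdha-, sdhb-, sdhd-, ucr-, cox- or atp-, together with mev-1, isp-1 and cyc-1. The rule gave 38 genes of the 46934 gene identifiers counted, and it used no measured value. They comprised 6 genes of complex I, 5 of complex II, 7 of complex III, 7 for subunits of complex IV, 8 for the assembly of complex IV and 5 of complex V, the ATP synthase. Of these, 37 passed the filter on low counts, and nuo-3 did not.

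The study asked how loss of SIN-3, the scaffold protein of a histone deacetylase co-repressor complex, or of HDA-3, a class I histone deacetylase, alters the transcripts of the germ line. It compared dissected gonads of young adults of the wild type (wt, 3 libraries, replicates 3, 4 and 5), of the strain sin-3(syb2172) (3 libraries, replicates 3, 4 and 5) and of the strain hda-3(ok1991) (2 libraries, replicates 4 and 5). Each library came from the gonads of 9 to 12 worms, and the RNA was amplified as cDNA by a Smart-seq2 protocol and sequenced as single reads of 50 bases, per the labels. The labels name no other allele or treatment, and what each allele removes is not given in the sources used here. Replicates are independent biological ones, per the labels.

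Oxidative phosphorylation passes electrons from NADH through complex I, or from succinate through complex II, to ubiquinone, on through complex III and cytochrome c, and to oxygen at complex IV. Complexes I, III and IV pump protons across the inner mitochondrial membrane, and the ATP synthase uses their return to make ATP. Most subunits are encoded in the nucleus and imported, while a few core subunits are encoded in mitochondrial DNA. In the nematode germ line, oocytes are rich in mitochondria, which pass to the offspring through the mother.

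Depth, composition and the purity of the dissections bear on every value below. Reads counted on genes ranged from 14550417 to 24389531 per library, of which ribosomal RNA (rRNA) genes took 41.8 to 79.0%, and 60165 to 161449 reads fell on the 38 genes. The normalisation factors (trimmed mean of M values, TMM) were between 0.424 and 2.3, values that belong to replicates 3 and 5 of sin-3, so the sin-3 libraries differed in composition among themselves. The gene sin-3 had 606, 616 and 1274 reads in wt and 0, 2 and 1 in the sin-3 libraries, and hda-3 was at 28.2 to 39.1 CPM (reads of the gene per 1000000 reads of TMM-scaled library size) in wt against 13.9 and 18.7 in the hda-3 libraries. Summed over 6 germ line markers the level was 951 to 1221 CPM in wt, 618 to 1251 in sin-3 and 601 to 743 in hda-3, where gld-1 fell, and over 8 oocyte markers it was 10590 to 20260, 4460 to 14880 and 6156 to 6480 CPM. The 11 sperm markers summed to 3.94 to 10.9 CPM in wt, 2.03 to 25.9 in sin-3 and 754 to 894 in hda-3, where 8 of them rose, msp-10, spe-11, spe-4 and msp-3 with the smallest adjusted p. The 11 intestine markers summed to 6.47 to 40.5, 29.3 to 90.7 and 146 to 264 CPM, and 6 of the 10 tested rose in hda-3, with asp-1, vit-5, cpr-1 and elt-7 first by adjusted p. Of 7 somatic gonad markers, 5 were tested and inx-8 and inx-9 fell in hda-3, where the sum was 7.39 and 8.85 CPM against 24.5 to 92.0 in wt. The muscle marker unc-22 also fell in hda-3, and between the mutants lim-7 and the markers just named other than gld-1, vit-5 and cpr-1 were called too. No marker of these lists was without reads in all libraries. The part of these cell types in the results below was not tested, and in such bulk samples fewer cells of a type and less RNA per cell cannot be told apart.

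In wild-type gonads most of these genes were strongly expressed. Ranked by CPM per kilobase (kb) of exon length among the 9977 protein-coding genes tested, the genes had a median percentile of 87.8, and 17 lay in the top 10% and 28 in the top 25%. The highest level was that of atp-1, which encodes the alpha subunit of the ATP synthase, at 1361 ± 410 CPM per kb (mean ± SD, n = 3), followed by atp-2 for the beta subunit at 559.7 ± 69.5. The lowest of the tested genes were sdha-1, at 0.186 ± 0.0436 CPM per kb, and cox-10, which encodes heme O synthase, at 0.400 ± 0.243. The transcripts were short, with a median exon length of 945 bases for the tested genes against 1445 for all tested protein-coding genes. The genes lay on all chromosomes, with 11 on I, 5 on II, 10 on III, 5 on IV, 4 on V and 3 on X (WBcel235).

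**Figure D1:**
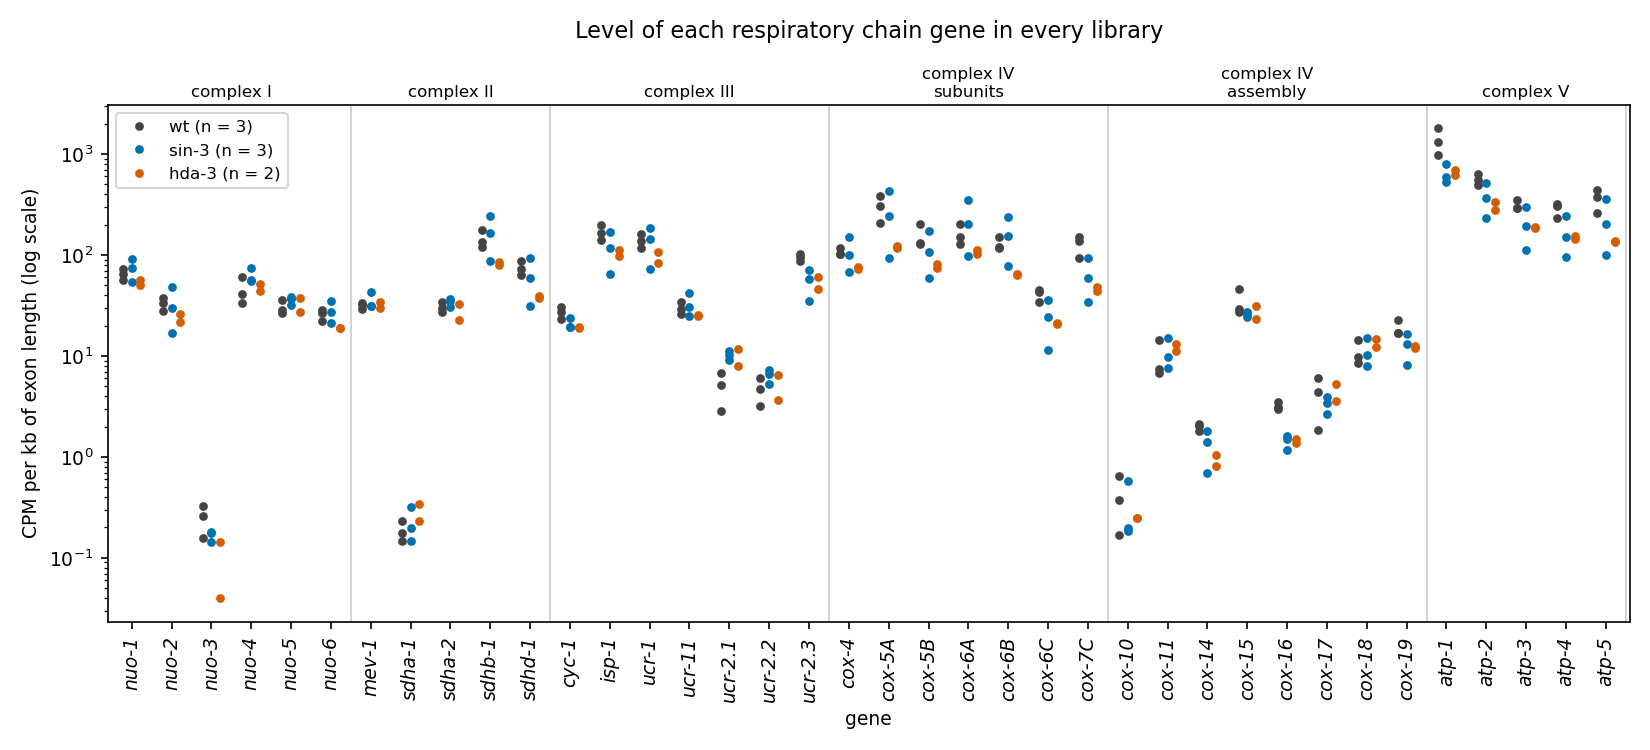
Level of each of the 38 genes in every library, in CPM per kb of exon length on a log scale, grouped by complex; each point is 1 library (wt n = 3, sin-3 n = 3, hda-3 n = 2). ATP synthase genes and cox-5A sit highest, with atp-1 at 1361 CPM per kb on average in wt, and sdha-1, nuo-3 and cox-10 sit lowest.

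In sin-3 gonads none of the 37 tested genes passed an edgeR adjusted p under 0.05, in a comparison in which 7.6% of all 10302 genes tested did. Of all genes 2.68% were called higher and 4.92% lower. With p unadjusted and under 0.05, 1 respiratory chain gene was higher and 6 were lower, where 13.9 and 12.9% of all genes were. DESeq2, which called 14.6% of all genes, called ucr-2.1 higher and atp-1 lower, and voom, which called 7.11%, called ucr-2.1 higher. The median log2 fold change of the 37 genes was -0.16, against 0.12 for all genes tested, and 22 had a negative value, against 43.3% of all genes. The edgeR counts rested on sin-3 replicate 3, without which 14.2% of all genes were called, ucr-2.1 was called higher and 6 genes lower, namely atp-3, atp-4, atp-5, cox-6C, cox-7C and ucr-2.3, and the median was -0.36. Leaving out wt replicate 3 gave a median of -0.06, and leaving out replicate 4 or 5 of sin-3 gave -0.08 or -0.10.

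In hda-3 gonads 1 gene fell, cox-7C, and none was called higher, against 18.3% of all genes called, 4.85% lower and 13.5% higher. With an unadjusted p under 0.05, 1 was higher and 11 were lower, where 18.4 and 13.8% of all genes were. DESeq2, which called 18.5% of all genes, called ucr-2.1 higher and 3 genes lower (atp-1, atp-5 and cox-7C), and voom, which called 18.9%, called ucr-2.1 higher and 2 lower (atp-5 and cox-7C). The median log2 fold change was -0.58, against -0.02 for all genes, and 28 of 37 had a negative value, against 51.1% of all genes. With edgeR the number of genes called lower was 0 on leaving out wt replicate 3, wt replicate 4 or either hda-3 library (9.25 to 14.2% of all genes called), 8 on leaving out replicate 3 of sin-3 (21.5%) and 9 on leaving out its replicate 5 (27.5%). The comparisons of sin-3 and of hda-3 with wt share the wt libraries.

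Which libraries lay apart depended on the scaling. In CPM, 1 gene was higher and 6 were lower in every sin-3 library than in every wt library, where 14.7 and 14.4% of all genes were. In hda-3, 1 gene was higher and 25 were lower in both libraries than in every wt library, against 25.4 and 26.7% of all genes. When each library was scaled by its reads outside rRNA genes instead, the direction turned: 16 genes were higher and 1 lower in sin-3, and 19 higher and 3 lower in hda-3 (the lower ones were cox-16 in both and cox-7C and atp-5 in hda-3), while 34.3 and 66.5% of all genes were then higher and 2.91 and 4.69% lower. That scaling moved the median log2 ratio of all genes to 0.88 in sin-3 and 0.87 in hda-3, from 0.10 and -0.02 with TMM. A scaling multiplies all genes of a library alike, so it hardly moves the median of the 37 genes less that of all genes, which was -0.33 to -0.29 in sin-3 and -0.55 to -0.51 in hda-3 over the 4 scalings tried. Leaving out libraries did move it in sin-3, where the medians were -0.06 against 0.13 for all genes without wt replicate 3, and -0.36 against 0.14 without replicate 3 of sin-3.

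The summed level of the 38 genes shows the same dependence. It was 6593, 5848 and 7152 CPM in wt, 5825, 4151 and 2965 in the sin-3 libraries, in the order of replicates 3 to 5, and 3367 and 3796 in the hda-3 libraries. On that scale all 5 mutant libraries lay below the wt libraries, sin-3 replicate 3 only just, and this depended on atp-1. Without atp-1 the sums were 3944, 3850 and 3502 CPM in wt libraries, 4214, 2946 and 1897 in sin-3 libraries and 2116 and 2385 in hda-3 libraries, so that sin-3 replicate 3 then lay above wt. As a share of reads outside rRNA the genes took 0.981, 1.025 and 1.31% in wt libraries, 1.18, 1.19 and 1.17% in sin-3 libraries and 1.11 and 1.17% in hda-3 libraries, and there every mutant library lay within the wt range. Without atp-1 the shares were 0.587, 0.675 and 0.643% in wt libraries, 0.852, 0.844 and 0.748% in sin-3 libraries and 0.696 and 0.737% in hda-3 libraries, and every mutant library lay above every wt library. The 50 most abundant genes outside rRNA took 43.0 to 51.5% of those reads in wt, 18.7 to 43.1% in sin-3 libraries and 25.2 and 27.3% in hda-3 libraries, and the part of this in the shift between the scales was not tested.

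**Figure D2:**
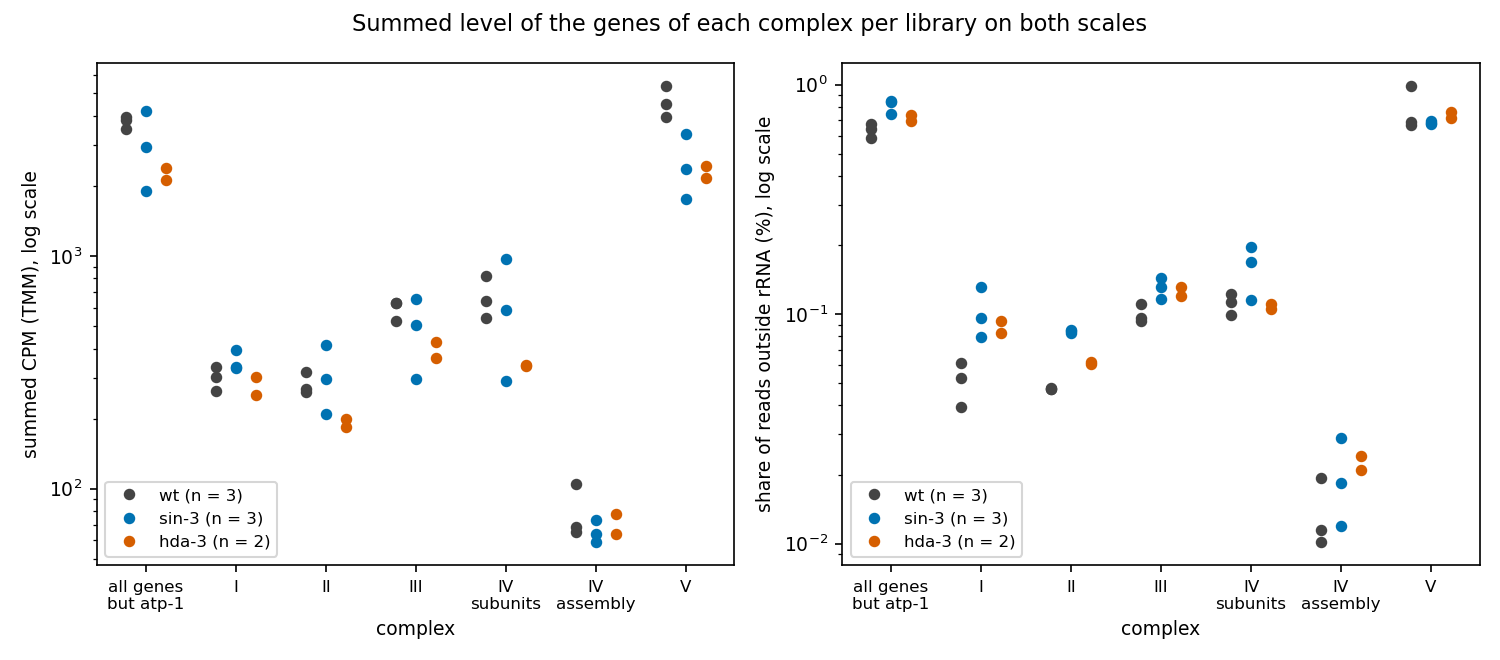
Summed level of the genes of each complex per library, in TMM-scaled CPM (left) and as a percent of reads outside rRNA (right), both on log axes; points are libraries, and the first column holds all genes but atp-1. On the left the hda-3 libraries lie below wt for complexes II, III and V and the subunits of complex IV, while on the right they lie within or above the wt range for every complex, so the direction differs between the scales.

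Abundant genes as a class were lower in both mutants on the TMM scale. Among the 583 protein-coding genes with a mean of at least 100 CPM over the 8 libraries, the median log2 fold change was -0.53 in sin-3 and -0.74 in hda-3. The 10 respiratory chain genes in that class had medians of -0.55 and -0.83. At 10 to 100 CPM the medians were -0.09 and -0.14 for all genes and 0.02 and -0.47 for the 19 respiratory chain genes. Below 10 CPM they were 0.53 and 0.37 for all genes and -0.24 and -0.42 for the 8 respiratory chain genes. In hda-3, tested protein-coding genes of up to 1000 bases of exon had a median of -0.23 and longer ones 0.03, against -0.81 for the 20 respiratory chain genes up to that length and -0.33 for the 17 longer ones. In sin-3 the same medians were -0.01 and 0.17 for all genes and -0.31 and 0.02 for the respiratory chain genes. In both mutants the medians of all genes thus varied with level and length, whose part in the differences was not tested beyond these classes.

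**Figure D3:**
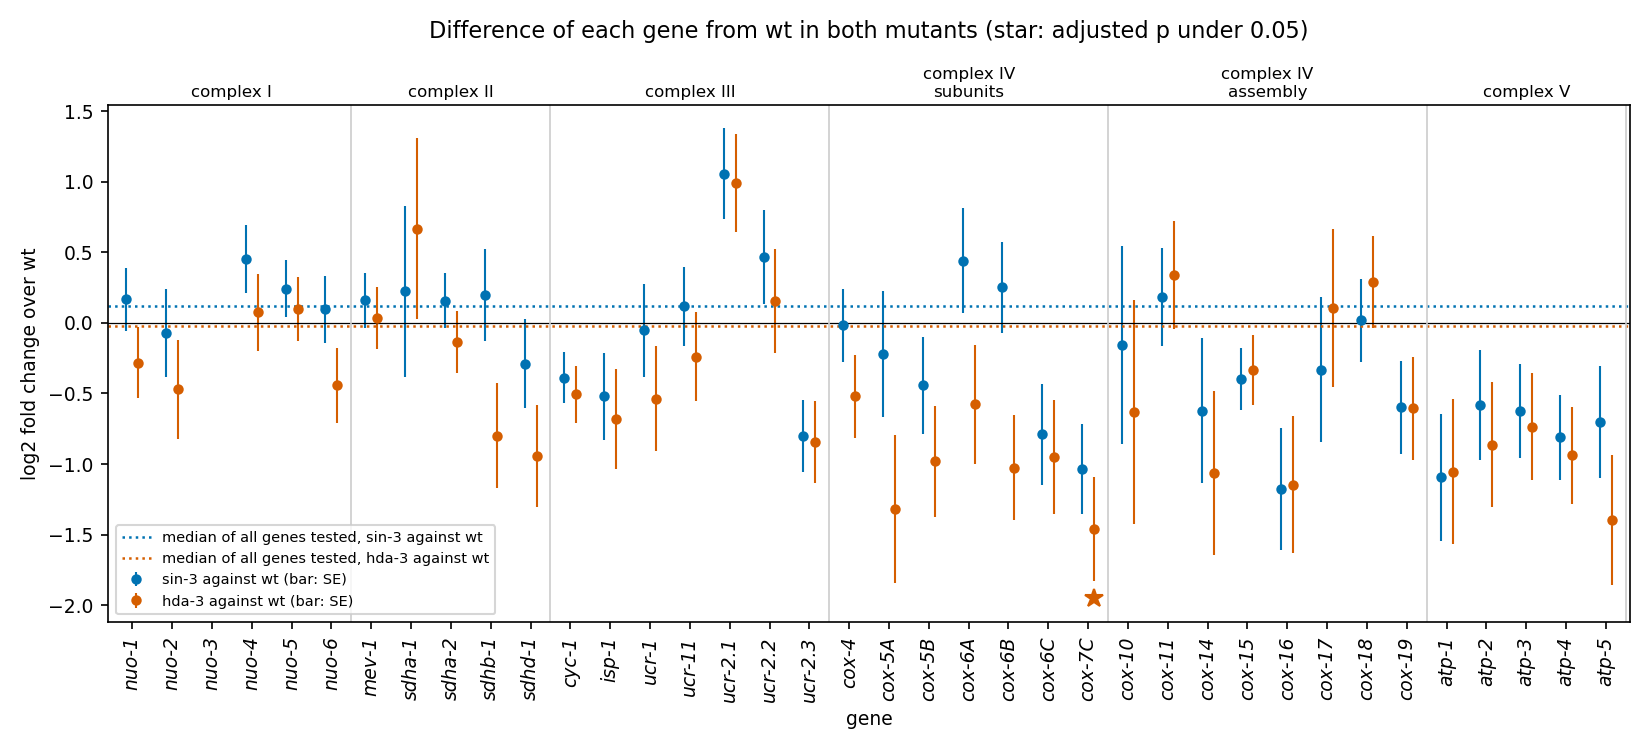
Log2 fold change over wt of each tested gene in sin-3 (blue) and hda-3 (orange) gonads from 1 edgeR fit, grouped by complex; bars are standard errors and dotted lines the medians of all genes tested (0.12 and -0.02). Only cox-7C in hda-3 passed the adjusted threshold (star), and the values of complex V and of the complex IV subunits in hda-3 all lie below zero on this TMM scale, a direction that turns for cox-4, cox-6A, atp-2 and atp-3 when libraries are scaled by reads outside rRNA.

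Complex I, NADH dehydrogenase, is represented by the core subunit genes nuo-1, nuo-2 and nuo-5 and by the accessory subunit genes nuo-3, nuo-4 and nuo-6. None of the 5 tested genes passed the test in either mutant, with edgeR, DESeq2 or voom, nor at an unadjusted p under 0.05, and their median log2 fold changes were 0.17 in sin-3 and -0.28 in hda-3. The most abundant per kb in wt was nuo-1, for the flavoprotein that accepts electrons from NADH, at 65.1 ± 8.30 CPM per kb, and the least abundant tested was nuo-6 at 25.8 ± 3.2. The largest value in sin-3 was that of nuo-4, which had 55.1, 66.7 and 100.3 CPM in wt libraries, 92.0, 90.7 and 121.6 in sin-3 libraries and 72.2 and 83.9 in hda-3 libraries. Its wt and sin-3 libraries overlapped through wt replicate 5 (log2 fold change 0.45, SE 0.24, edgeR adjusted p = 0.255). Scaled by reads outside rRNA instead, all 5 tested genes were higher in every library of both mutants than in wt. On that scale 34.3% of all genes lay so in sin-3 and 66.5% in hda-3. The median log2 ratio of all genes was then 0.88 in sin-3 and 0.87 in hda-3. In the edgeR fit on the TMM scale nuo-5 was at 0.24 in sin-3, next to nuo-4. In hda-3 nuo-5 was highest at 0.10, followed by nuo-4 at 0.07. The lowest values of that fit were those of nuo-2, at -0.07 in sin-3 and -0.47 in hda-3, and of nuo-6, at 0.10 and -0.44.

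The gene nuo-3 had 1 to 10 reads per library and was not tested, and 72.6% of its exon length overlaps other annotated genes. Because the counting left ambiguous reads out, its level cannot be read from these counts.

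Complex II, succinate dehydrogenase, also serves the TCA cycle. Its 5 genes encode the flavoprotein (sdha-1 and sdha-2), the iron-sulfur protein (sdhb-1), the cytochrome b subunit (mev-1) and the other membrane anchor (sdhd-1). None passed the edgeR test in either mutant or with DESeq2 or voom. At an unadjusted p under 0.05, sdhd-1 was lower in hda-3, and the medians were 0.16 in sin-3 and -0.14 in hda-3. The most abundant was sdhb-1, with 185.4, 141.8 and 127.8 CPM in wt libraries, 256.1, 175.5 and 91.9 in sin-3 libraries and 90.3 and 84.1 in hda-3 libraries. The sin-3 libraries spanned the wt range on both sides, and both hda-3 libraries lay below wt (log2 fold change 0.20, SE 0.33, adjusted p = 0.725 in sin-3, and -0.80, SE 0.37, adjusted p = 0.163 in hda-3).

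The anchor gene sdhd-1 had 53.1, 43.9 and 38.1 CPM in wt libraries, 56.2, 35.9 and 19.1 in sin-3 libraries and 23.9 and 22.9 in hda-3 libraries. It too spread widely in sin-3, and its hda-3 libraries lay below wt (-0.94, SE 0.36, edgeR adjusted p = 0.0933), although scaled by reads outside rRNA they lay within the wt range. The values of mev-1 were 0.16 in sin-3 and 0.03 in hda-3, and those of sdha-2 were 0.16 and -0.14. Nearly all of the flavoprotein transcript came from the autosomal copy: X-linked sdha-1 had 5 to 32 reads per library and made up 0.426 to 0.778% of the summed sdha level per kb in wt, 0.477 to 0.911% in sin-3 libraries and 0.705 and 1.49% in hda-3 libraries, and the groups overlapped.

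Complex III, the cytochrome bc1 complex, held a contrast between copies of a gene that was clearer than that of the sdha copies. Copies of genes outside the naming rule are given further below. Core protein 2 has 3 genes, of which ucr-2.3 lies on chromosome III (879860 to 881458, plus strand) and ucr-2.1 (12018429 to 12021206, plus strand) and ucr-2.2 (15173904 to 15178145, plus strand) on the X chromosome. The X-linked ucr-2.1 had 7.44, 9.80 and 4.12 CPM in wt libraries, 13.1, 14.7 and 16.1 in sin-3 libraries and 16.6 and 11.3 in hda-3 libraries. All 5 mutant libraries lay above all wt libraries (log2 fold change 1.06, SE 0.32, edgeR adjusted p = 0.0655 in sin-3, and 0.99, SE 0.35, adjusted p = 0.0708 in hda-3), so that the edgeR test was missed in both. They lay above wt also when scaled by reads outside rRNA. Leaving out 1 library at a time, it was called in sin-3 without replicate 3 of sin-3 (adjusted p = 0.0453) and in hda-3 without wt replicate 4 (adjusted p = 0.0463) and, separately, without replicate 5 of sin-3 (adjusted p = 0.0169). The autosomal ucr-2.3 had 139.5, 128.5 and 118.8 CPM in wt libraries, 96.0, 79.1 and 47.4 in sin-3 libraries and 62.1 and 81.4 in hda-3 libraries. All 5 mutant libraries lay below wt in CPM (-0.80, SE 0.26, adjusted p = 0.0775, and -0.85, SE 0.29, adjusted p = 0.0665), but scaled by reads outside rRNA both mutants overlapped wt.

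The ratio of the copies does not depend on the scaling of the libraries. The X-linked pair made up 9.78, 10.8 and 6.44% of the summed level per kb of the 3 genes in wt libraries, 18.2, 23 and 32% in sin-3 libraries and 28.3 and 16.1% in hda-3 libraries. Every mutant library lay above every wt library, at means of 9.01 ± 2.28% (n = 3), 24.4 ± 7.01% (n = 3) and 22.2 ± 8.64% (n = 2). An exact two-sided permutation test gave p = 0.1 for sin-3 and p = 0.2 for hda-3 against wt, in each case the smallest value the number of libraries allows, so that this design cannot reach 0.05. The autosomal copy remained the most abundant of the 3 in every library. The other X-linked copy, ucr-2.2, had 8.63, 6.72 and 4.56 CPM in wt libraries, 9.59, 10.3 and 7.51 in sin-3 libraries and 9.42 and 5.24 in hda-3 libraries, with overlapping groups (0.47 in sin-3 and 0.16 in hda-3). Among the 1187 X-linked genes tested, 4.97% were called higher in sin-3 and 3.62% in hda-3.

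**Figure D4:**
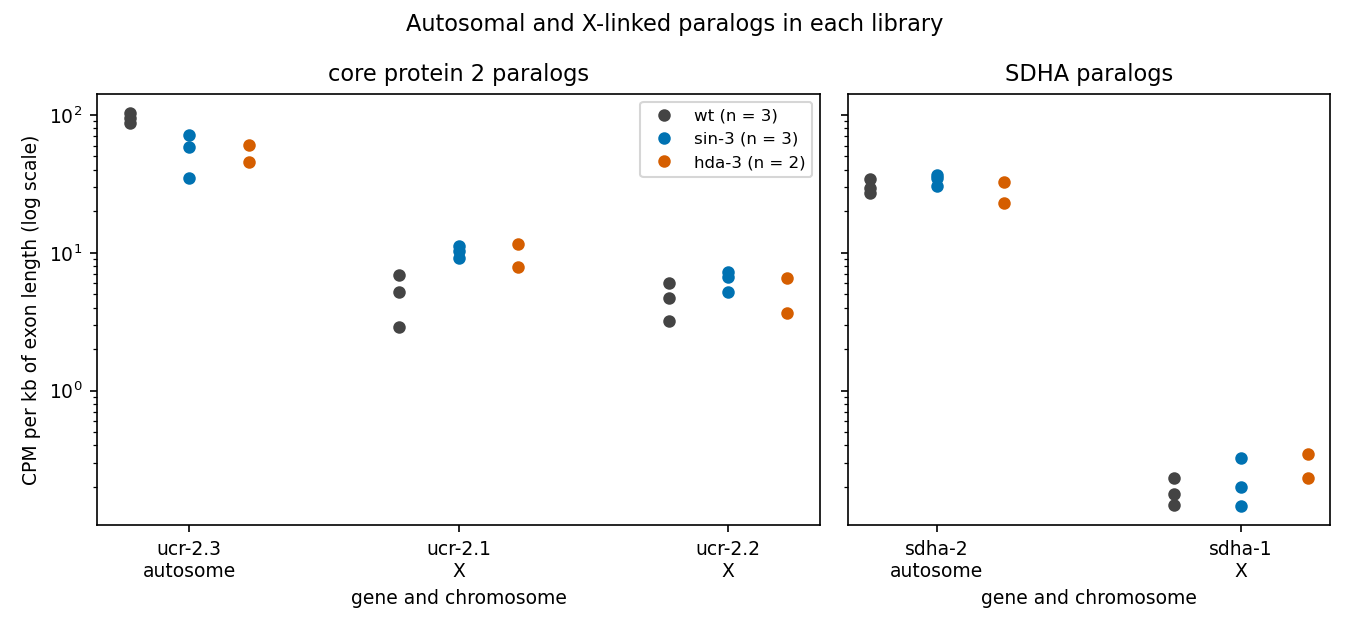
Autosomal and X-linked copies of the core protein 2 genes (left) and of the succinate dehydrogenase flavoprotein genes (right), in CPM per kb on a log scale; each point is 1 library. In both mutants ucr-2.3 lies below and ucr-2.1 above the wt libraries on this TMM scale, neither past the edgeR threshold, while sdha-1 stays near the floor in all groups.

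The other 4 genes of complex III had smaller differences than ucr-2.1 and ucr-2.3, and none passed the edgeR, DESeq2 or voom threshold. The Rieske iron-sulfur protein gene isp-1, the most abundant of the complex per kb (169 ± 28.6 CPM per kb in wt), was at -0.52 (SE 0.31, adjusted p = 0.304) in sin-3 and -0.68 (SE 0.35, adjusted p = 0.206) in hda-3. The values of cyc-1, for cytochrome c1, were -0.39 and -0.51 (unadjusted p under 0.05 in hda-3), those of ucr-1, for core protein 1, -0.05 and -0.54, and those of ucr-11 0.12 and -0.24.

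Complex IV, cytochrome c oxidase, carried the only 2 calls of the edgeR fit. Its 7 nuclear subunit genes are cox-4, cox-5A, cox-5B, cox-6A, cox-6B, cox-6C and cox-7C. In hda-3 all 7 lay below wt in both libraries in CPM, as did 26.7% of all genes. Scaling by reads outside rRNA left only cox-7C below and put cox-4 and cox-6A above, where 4.69% of all genes lay below and 66.5% above. The TMM-based median log2 fold change in hda-3 was -0.98, against -0.02 for all genes tested. In sin-3 the values ran from -1.03 to 0.44 with a median of -0.22, against 0.12 for all genes tested. The small subunit gene cox-7C (chromosome I, 9773172 to 9774012, plus strand) had 58.1, 53.4 and 36.6 CPM in wt libraries, 36.4, 23.3 and 13.2 in sin-3 libraries and 18.6 and 17.1 in hda-3 libraries. Both hda-3 libraries had less than every wt library, and it fell by 1.46 on the log2 scale (SE 0.37, edgeR adjusted p = 0.0165). Scaled by reads outside rRNA its hda-3 libraries also lay below wt (log2 ratio of means -0.53) and its sin-3 libraries overlapped wt. In sin-3 replicate 3 the level was only just below the lowest wt library, and the difference was -1.03 (SE 0.32, adjusted p = 0.0693).

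The call for cox-7C in hda-3 held with RLE factors, with TMM on autosomal genes, with DESeq2 and with voom. It was lost when wt replicate 3 (-1.33, edgeR adjusted p = 0.0568), wt replicate 4 (-1.41, adjusted p = 0.0608), hda-3 replicate 4 (-1.51, adjusted p = 0.103) or hda-3 replicate 5 (-1.40, adjusted p = 0.102) was left out. In the sin-3 comparison cox-7C was called once replicate 3 of sin-3 was left out (-1.44, adjusted p = 0.00926).

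The 2 mutants differed from each other in cox-6B. This gene, for a subunit that faces the intermembrane space, had 86.9, 67.8 and 69.4 CPM in wt, 135.3, 88.0 and 44.3 in sin-3 libraries and 36.4 and 37.0 in hda-3 libraries. Every sin-3 library lay above both hda-3 libraries, although replicate 5 of sin-3, the library with the highest TMM factor, lay below wt and replicates 3, with the lowest, and 4 above it. In the direct comparison it was higher in sin-3 by 1.28 on the log2 scale (SE 0.37, edgeR adjusted p = 0.0378), where 2.59% of all genes were called higher. Against wt it was at 0.25 (adjusted p = 0.648) in sin-3 and -1.02 (adjusted p = 0.0783) in hda-3. The call was lost with RLE factors, with TMM on autosomal genes, with only these 2 groups fitted and with a replicate block. Without replicate 5 of sin-3 the difference between the mutants was 1.45 (adjusted p = 6.42e-04), and without any other single library it was not called (0.85 to 1.28, adjusted p from 0.0532 to 0.213).

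No other respiratory chain gene was called between the mutants, where 15.3% of all genes were called and 12.7% were lower in sin-3. At an unadjusted p under 0.05, 3 were higher in sin-3, where 8.61% of all genes were, and 0 lower, where 16.3% were. DESeq2, with 15.4% of all genes called, and voom, with 16.8%, each called cox-6B alone. A negative value was found for 7 of 37 genes and for 45.3% of all genes. The median log2 fold change was 0.29, against 0.06 for all genes tested. It was 0.09 against 0.05 without replicate 3 of sin-3, and 0.07 against -0.08 without its replicate 4. Without replicate 5 of sin-3 it was 0.28 against -0.18. In CPM 4 genes were above both hda-3 libraries in every sin-3 library and 0 below, against 17.5 and 22.3% of all genes. The other genes with an unadjusted p under 0.05 were cox-6A (1.02, SE 0.43, edgeR adjusted p = 0.161) and sdhb-1 (1.00, SE 0.38, adjusted p = 0.109). On leaving out replicate 5 of sin-3, 22.6% of all genes were called and 5 of these genes were higher, namely cox-5A, cox-6A, cox-6B, sdhb-1 and sdhd-1.

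The proportions of the complex IV subunit transcripts among themselves do not depend on library scaling, and they are given for the 6 genes whose share lay apart from wt in at least 1 mutant, a choice made after their values were seen. Of the summed level per kb of the 7 genes, cox-7C made up 12.0, 13.9 and 11.5% in wt libraries, 6.34, 6.68 and 7.68% in sin-3 libraries and 9.40 and 8.57% in hda-3 libraries, lower in every mutant library. The share of cox-6A was 16.1, 15.2 and 15.8% in wt libraries, 23.8, 22.8 and 22.3% in sin-3 libraries and 20.3 and 21.7% in hda-3 libraries, higher in every mutant library. For cox-6B the share was 12.2, 12.0 and 14.8% in wt libraries, 16, 17.2 and 17.6% in sin-3 libraries and 12.5 and 12.6% in hda-3 libraries, and only the sin-3 libraries lay apart. The share of cox-6C, the least abundant of the 7 per kb, was 3.57, 4.37 and 4.16% in wt libraries, 2.44, 2.69 and 2.58% in sin-3 libraries and 4.16 and 4.05% in hda-3 libraries, again apart in sin-3 alone. In hda-3 alone 2 further shares lay apart. That of cox-4 was 9.43, 10.4 and 12.4% in wt libraries, 10.2, 11.3 and 15.4% in sin-3 libraries and 14.3 and 14.9% in hda-3 libraries, higher in both of the latter. That of cox-5A was 30.5, 31.3 and 25.3% in wt libraries, 29.4, 27.3 and 21.2% in sin-3 libraries and 23.1 and 23.7% in hda-3 libraries, lower in both of the latter. The share of cox-5B overlapped wt in both mutants. Shares apart from wt were not confined to complex IV. For instance, sdhd-1 made up 25 to 27.2% of complex II per kb in wt libraries. It made up 16.8 to 22.4% in sin-3 libraries and 22.1 and 20.4% in hda-3 libraries. The shares sum to 100% within a library, so they are not independent, and the p of an exact test cannot go below 0.1 for sin-3 or 0.2 for hda-3.

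**Figure D5:**
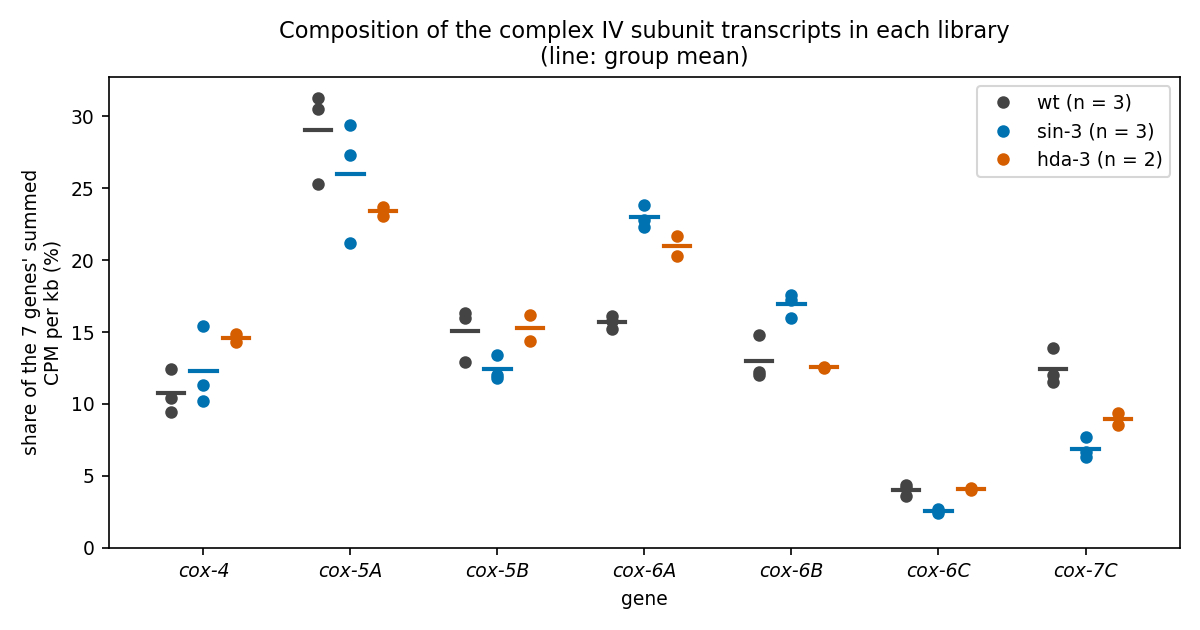
Share of each of the 7 complex IV subunit genes in their summed CPM per kb, in percent, for every library (points) with the group mean (line). The mean share of cox-7C is 12.4% in wt, 6.90% in sin-3 and 8.98% in hda-3, and that of cox-6A is 15.7, 23.0 and 21%, with no overlap between either mutant and wt.

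In levels, cox-5A was the most abundant subunit gene per kb in wt. It had 283.3, 229.9 and 154.7 CPM in wt libraries, 322.5, 181.7 and 69.5 in sin-3 libraries and 87.6 and 90.8 in hda-3 libraries. The sin-3 libraries spread from above to below the wt range, and both hda-3 libraries lay below wt (-1.32, SE 0.52, edgeR adjusted p = 0.106). The sin-3 values of cox-6A were 188.3, 109.6 and 52.7 CPM against 107.8, 80.4 and 69.6 in wt libraries and 55.5 and 59.8 in hda-3 libraries. They too fell on both sides of wt (0.44, SE 0.37, adjusted p = 0.475 in sin-3). The remaining subunits were at -0.79 in sin-3 and -0.95 in hda-3 for cox-6C, -0.44 and -0.98 for cox-5B, and -0.02 and -0.52 for cox-4, and none was called.

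The 8 genes for the assembly of complex IV were expressed at lower levels than the subunits and included none with an adjusted p under 0.05 by edgeR, DESeq2 or voom. Their medians were -0.37 in sin-3 and -0.47 in hda-3, and cox-16 was lower at an unadjusted p under 0.05 in both. The most abundant per kb was cox-15, for heme A synthase, at 34.2 ± 10.1 CPM per kb in wt. The lowest values were those of cox-16, with 2.11, 1.77 and 1.86 CPM in wt libraries, 0.968, 0.894 and 0.707 in sin-3 libraries and 0.906 and 0.816 in hda-3 libraries. Every mutant library lay below wt in CPM (-1.18, SE 0.43, edgeR adjusted p = 0.112 in sin-3, and -1.15, SE 0.48, adjusted p = 0.125 in hda-3). They lay below wt also when scaled by reads outside rRNA, at log2 ratios of means of -0.40 in sin-3 and -0.23 in hda-3.

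The counts of cox-16 are uncertain, since 61.6% of its exon length overlaps other annotated genes, as does 75.7% for cox-14, which was at -0.62 in sin-3 and -1.06 in hda-3. The highest values were those of cox-11, a copper delivery factor, at 0.18 and 0.34, and of cox-18, which takes part in membrane insertion, at 0.02 and 0.29. The copper chaperone genes cox-17 and cox-19 were at -0.33 and -0.60 in sin-3 and at 0.11 and -0.61 in hda-3. The heme synthesis genes cox-10 and cox-15 were at -0.16 and -0.40 in sin-3 and at -0.63 and -0.33 in hda-3, and cox-10 had only 3 to 48 reads per library.

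Complex V, the ATP synthase, had the lowest median of the complexes in sin-3, -0.70, and a median of -0.94 in hda-3, next to the -0.98 of the complex IV subunits. All 5 genes had negative values in both mutants on the TMM scale, where 43.3% of all genes did in sin-3 and 51.1% in hda-3. None of the 5 passed the edgeR test. At an unadjusted p under 0.05, 2 were lower in sin-3 (atp-1 and atp-4) and 2 in hda-3 (atp-4 and atp-5). As a share of reads outside rRNA the complex took 0.668, 0.691 and 0.989% in wt libraries, 0.674, 0.677 and 0.696% in sin-3 libraries and 0.713 and 0.757% in hda-3 libraries, where no mutant library lay outside the wt range. The alpha subunit gene atp-1 had 2648, 1998 and 3649.5 CPM in wt libraries, 1611, 1205 and 1068 in sin-3 libraries and 1251 and 1411 in hda-3 libraries. All mutant libraries lay below wt in CPM, but not when scaled by reads outside rRNA, and wt replicate 5 stood highest (-1.10, SE 0.45, edgeR adjusted p = 0.148 in sin-3, and -1.06, SE 0.52, adjusted p = 0.181 in hda-3).

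The gene atp-5, for a peripheral stalk subunit, had 348.0, 298.2 and 207.7 CPM in wt libraries, 285.4, 161.6 and 79.2 in sin-3 libraries and 109.9 and 106.2 in hda-3 libraries. Its wt and sin-3 libraries overlapped and its hda-3 libraries lay below wt (-1.40, SE 0.46, edgeR adjusted p = 0.0563), also when scaled by reads outside rRNA. The beta subunit gene atp-2 was at -0.58 in sin-3 and -0.86 in hda-3, and the stalk genes atp-3 and atp-4 were at -0.63 and -0.81 in sin-3 and at -0.74 and -0.94 in hda-3.

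The authors' deposited tables, which have the columns that DESeq2 writes, called more of these genes than the fit above. For sin-3, where 12.7% of the genes with an adjusted p were called, the authors' deposited table called ucr-2.1 higher and cox-7C, atp-1, atp-4 and ucr-2.3 lower. For hda-3, where 17.5% were called, the authors' deposited table called 0 of the 38 genes higher and 7 lower, namely atp-1, atp-2, atp-4, atp-5, cox-5A, cox-6B and cox-7C. In the authors' deposited table cox-7C was at -1.16 (adjusted p = 9.13e-04) in hda-3 and at -1.07 (adjusted p = 0.0103) in sin-3.

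Genes of the same pathway outside the naming rule gave further calls. Of 28 other complex I subunit genes, 2 rose in sin-3, nduf-9 (0.61, SE 0.16, edgeR adjusted p = 0.0436) and ndua-8 (0.77, SE 0.21, adjusted p = 0.0462), and 1 fell, ndub-2 (-1.10, SE 0.28, adjusted p = 0.0397), where 2.68% of all genes rose and 4.92% fell. In hda-3 2 of the 28 fell, ndua-5 (-1.15, SE 0.29, adjusted p = 0.0164) and ndub-2 (-1.16, SE 0.32, adjusted p = 0.0269), where 4.85% of all genes fell. The medians over the 28 genes were 0.04 in sin-3 and -0.54 in hda-3, against 0.12 and -0.02 for all genes. None of these calls held without each library in turn: nduf-9 and ndua-8 kept theirs in 1 of 8 such fits, ndub-2 in 2 of 8 for sin-3 and 3 of 8 for hda-3, and ndua-5 in 4 of 8.

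The 7 other ATP synthase genes had a smallest adjusted p of 0.259 in sin-3 (asb-1, -0.51) and of 0.0809 in hda-3 (asg-1, -1.39), in the edgeR fit. Autosomal asb-1 and asg-1 were at -0.51 and -0.73 in sin-3 and at -0.73 and -1.39 in hda-3. Their X-linked copies asb-2 and asg-2 were at 0.48 and 0.09 in sin-3 and at 0.33 and 0.09 in hda-3. The other way round, X-linked mai-1 was at -0.66 in sin-3 and -0.41 in hda-3, below autosomal mai-2 at -0.21 and -0.33. Cytochrome c, which carries electrons from complex III to complex IV, has 2 genes. In hda-3 cyc-2.1 fell from 294.1 ± 70.3 to 118.2 ± 18 CPM (edgeR adjusted p = 0.0254, called in 3 of 8 fits without 1 library). In the same gonads cyc-2.2 rose from 0.117 ± 0.0452 to 36.8 ± 6.60 CPM (adjusted p = 2.47e-04, called in 8 of 8 fits without 1 library), in the libraries in which the sperm markers summed to 754 and 894 CPM, whose part in this was not tested. In hda-3 the cytochrome c heme lyase gene cchl-1 fell by 1.09 on the log2 scale (SE 0.29, adjusted p = 0.0208, called in 4 of 8) and the assembly gene coa-7 fell by 1.03 (SE 0.22, adjusted p = 0.00552, called in 7 of 8). The other 9 assembly genes of that list were not called in either mutant.

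Upstream of the chain, coq-3, for a methyltransferase of ubiquinone synthesis, fell in sin-3 (-1.05, SE 0.29, edgeR adjusted p = 0.0487), a call lost in each of 8 fits without 1 library. The other 7 genes of that list were not called. Of 15 TCA cycle genes, 2 fell in sin-3, where 4.92% of all genes did. The fumarase gene fum-1 went from 176.3 ± 35.7 to 51.0 ± 14 CPM (-1.79, SE 0.25, adjusted p = 0.00288, called in 8 of 8), and sucl-2, for a succinyl-CoA ligase subunit, fell by 0.84 (SE 0.20, adjusted p = 0.0305, called in 2 of 8). In a list of 10 mitochondrial stress response genes the protease gene clpp-1 fell in sin-3 (-1.14, SE 0.21, adjusted p = 0.00967, called in 7 of 8). The smallest adjusted p in hda-3 was 0.0599 in the TCA list and 0.0913 in the stress response list. Between the mutants fum-1 (-1.31, adjusted p = 0.00480, called in 8 of 8 fits) and clpp-1 (-0.80, adjusted p = 0.0316, called in 6 of 8) were lower in sin-3 than in hda-3, as was cyc-2.2 (1.4 against 36.8 CPM, adjusted p = 0.00139). The TCA cycle gene dld-1, for dihydrolipoyl dehydrogenase, was higher in sin-3 (0.87, adjusted p = 0.0377, called in 1 of 8).

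The 12 protein-coding genes of mitochondrial DNA, whose products join those of the nuclear genes in complexes I, III, IV and V, varied far more between replicates. They summed to 1192, 8579 and 4842 CPM in wt libraries, 17850, 12380 and 3414 in sin-3 libraries and 1353 and 1976 in hda-3 libraries. The wt libraries overlapped both mutants, and the smallest adjusted p was 0.0662 in sin-3 and 0.0850 in hda-3. The median log2 fold change of the 12 was 1.4 in sin-3 and -1.1 in hda-3, against 0.12 and -0.02 for all genes. In the direct comparison all 12 were higher in every sin-3 library than in both hda-3 libraries, as were 17.5% of all genes. Their median was 2.58 against 0.06 for all genes. The edgeR test called 2 of them, WBGene00010958 (2.64, adjusted p = 0.0102, called in 7 of 8 fits without 1 library) and WBGene00010965 (2.90, adjusted p = 0.0351, called in 3 of 8), where 2.59% of all genes were called higher.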

How the data were processed

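The authors deposited, for each library, raw counts of reads per gene. The submitters' processing notes name STAR 2.7.3a, fastp 0.20.1, DESeq2 1.36.0 and HTSeq 0.7.2. Settings, genome build, annotation and strandedness of counting were not given in the sources used here. Without a strand setting, overlapping genes cannot be told apart. Of each library's reads, 1.06 to 2.27% lay on no feature, 0.673 to 1.55% were ambiguous and 3.03 to 5.57% aligned to more than 1 place. These named no gene and were left out. The authors also deposited tables of each mutant against wt with a mean normalised signal, a log2 fold change, a Wald score, a p-value and its adjusted form, per the file headers, used here for a comparison of calls.

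Of 46934 identifiers, 46923 were in the WBcel235 annotation (Ensembl release 115) and 44112 had a symbol. The counts of all 8 libraries entered 1 edgeR 4.0.16 fit (R 4.3.3, quasi-likelihood test, robust, TMM factors, filterByExpr at min.count 10 and min.total.count 15), with p-values adjusted by Benjamini and Hochberg over the 10302 genes kept and called under 0.05. The SE was derived as |log2 fold change| over the root of F. Alternatives were RLE factors, no filter, DESeq2 1.42.0, voom (limma 3.58.1), rRNA genes left out, TMM on autosomal genes, only the 2 groups compared, a replicate block and each library left out. The members and lists were chosen with earlier results of these data known. The text names every gene called, in each complex the 2 highest and 2 lowest values per mutant and the most and least abundant gene in wt, all paralogs by symbol, untested genes and, per list and comparison, up to 4 called genes by smallest adjusted p. The fit was also run on simulated counts drawn from the wt means, in which libraries did not differ in composition as these do. That run cannot show how the fit handles such differences. The list of other complex III and IV subunits matched 0 genes. The sums of muscle markers were 77.6 to 285.9 CPM over all libraries, those of neuron markers 2.97 to 5.33 and those of epidermis markers 16.1 to 388.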

Additional observations from a re-analysis of the deposited data

Results flagged for a closer look

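In the main edgeR fit cox-6B was called when the mutants were compared directly, where 2.59% of all genes were called higher. The call was lost with RLE factors, with TMM on autosomal genes, with only these 2 groups fitted and with a replicate block. It was also lost without any single wt library and without replicate 3 or 4 of sin-3. With all libraries cox-6B was higher in sin-3 than in hda-3 gonads by 1.28 on the log2 scale (edgeR adjusted p = 0.0378, n = 3 and 2 libraries), in 3 of 3 sin-3 libraries against both hda-3 libraries. The sin-3 libraries ran from 44.3 to 135.3 CPM, and without replicate 5 of sin-3 the difference was 1.45 (edgeR adjusted p = 6.42e-04). Leaving out 1 library at a time shows how far the call rests on it. Groups of 3 or fewer libraries are too small to judge whether 1 library is far from the others.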

How the results depend on the processing

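No called fold change altered its sign in a refit. Scaling by library sizes without rRNA turned the direction of the sums and of the counts of genes apart from wt. In sin-3 against wt 1 gene was called higher and 5 lower with no filter on low counts, where 6.19% of all genes were called. DESeq2, with 14.6% of all genes called, gave 1 and 1, and voom, with 7.11%, gave 1 higher. In hda-3, 1 was called higher and 10 lower with no filter, where 10% of all genes were called. The same counts came with only the 2 groups compared, where 27.4% of all genes were called. They were 1 and 3 with DESeq2 (18.5% of all genes called) and 1 and 2 with voom (18.9%). With RLE factors and with TMM on autosomal genes 1 gene was called higher, and 16.6% of all genes were called with each. Between the mutants 4 were called higher with no filter, where 7.59% of all genes were called. With RLE factors (15.3% of all genes called), TMM on autosomal genes (15.4%) or only the 2 groups compared (13.6%) 0 were called. In the main edgeR fit 3 had an unadjusted p under 0.05. Without each wt or sin-3 library in turn the calls ranged from 0 to 1 higher and 0 to 6 lower in sin-3, where 2.01 to 14.2% of all genes were called. They ranged from 0 to 1 and 0 to 9 in hda-3 (13.2 to 27.5%), and from 0 to 5 higher between the mutants (14.1 to 22.6%). Genes apart in every library ranged from 1 to 5 higher and 6 to 16 lower in sin-3. In hda-3 they ranged from 1 to 4 higher and 25 to 26 lower. With all libraries 14.7% of all genes were higher and 14.4% lower in sin-3, and 25.4% were higher and 26.7% lower in hda-3. Such shares were not computed without a library. Scalings tried after seeing the data gave 3 lower in sin-3 with autosomal TMM (12.8% of all genes). In hda-3, 3 and 4 were higher with RLE and autosomal TMM (30.5 and 33.1% of all genes). With each of these scalings 21 were lower in hda-3 (21.2 and 19.4% of all genes). With library sizes without rRNA, 16 were higher and 1 lower in sin-3, where 34.3 and 2.91% of all genes were. In hda-3 the counts were 19 and 3, where 66.5 and 4.69% of all genes were. The summed CPM of wt became 4719 with library size only and 11060 without rRNA, against 4745 and 11790 for sin-3 and 5755 and 11400 for hda-3, so that wt was highest on neither scale. The cause of these shifts was not tested. Whether libraries of the same number share more than that number was not settled. Their deviations from group means correlated over all genes at -0.20 to 0.29, against -0.29 to 0.21 for libraries of different groups and numbers. The deviations of the 2 hda-3 libraries mirror each other by construction. With the number as a replicate block 1 gene was called higher and 1 lower in sin-3 (9.6% of all genes called). The counts were 0 and 1 in hda-3 (13.1%) and 0 between the mutants (13.1%). The medians of the genes moved from -0.16 to -0.24 in sin-3, from -0.58 to -0.44 in hda-3 and from 0.29 to 0.13 between the mutants. Fits without an hda-3 library assume that the other one varies like the other groups. Genes at a few reads, nuo-3, sdha-1 and cox-10, are limited by depth.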
